A study of Mus musculus with 3 samples.

Results

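The genes described here are 10 enzymes of serine synthesis, folate-bound one-carbon metabolism and branched-chain amino acid use, of 33696 genes in the deposited matrices. They were chosen by name, with earlier results of these data known: Shmt1, Shmt2, Mthfd1, Mthfd2, Mthfd1l, Phgdh, Psat1, Psph, Aldh1l2 and Bcat1. Their transcripts were followed in cycling and resting CD8 T cells, Foxp3-negative CD4 T cells, Foxp3-positive T cells, NK cells and macrophages from mouse tumors. These classes held 13035, 7205, 1525, 3905 and 10359 cells in that order, of 71909 cells kept in all. The class counts include cells that met neither the cycling nor the resting definition given below.

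The cells were live CD45+ cells sorted from subcutaneous KP1 tumors, which grow from a mouse small-cell lung cancer (SCLC) line mutant for Rb and p53. Wild-type F1 hosts (B6129SF1/J) received 500000 tumor cells, then 3 µg of cytokine on alternate days from day 7 to day 19, and tumors were taken on day 19. There were 3 groups of 1 library each, sequenced by droplet 3′ single-cell RNA-seq, which counts unique molecular identifiers (UMIs). The first group received mono-IL-10 (labeled Supermono-10), a monomeric engineered IL-10. The second received the IL-10/2-Trikine, which adds a binder of the IL-2 receptor β chain to that cytokine. The third received this Trikine and anti-PD-1 at 200 µg, given 4 times between day 7 and day 19. The labels name the antibody for the third group alone, although the protocol could also be read as giving it to every group, and the study gives an earlier first day of treatment elsewhere for this model. The study's methods give female hosts for this model and F1 mice bought at an age of 5 to 6 weeks, while how many mice were pooled or used per library is not given in the sources used here. The labels call the cells T cells, although NK cells and macrophages with their own markers were among those kept. Every group received a cytokine, and no untreated library was analyzed here.

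Serine is made from a glycolytic intermediate in 3 steps, by Phgdh, Psat1 and Psph. Serine hydroxymethyltransferases, Shmt1 in the cytosol and Shmt2 in mitochondria, then pass a carbon unit from serine to tetrahydrofolate. Mthfd2 and Mthfd1l carry these units through the mitochondrial arm to formate, Mthfd1 returns formate to the cytosolic folate pool, and Aldh1l2 oxidizes mitochondrial formyl-tetrahydrofolate. The units are spent on purine rings and on thymidylate, so the pathway is known for its use by dividing lymphocytes. Bcat1 is the cytosolic transaminase of leucine, isoleucine and valine.

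Promoters of the enzymes are shown because the enzymes moved together in the comparisons below. RefSeq's table (GRCm38.p6) held promoters for 9 of the 10 genes, 11 sequences in all with 2 each for Psat1 and Bcat1, and the 250 bases before each start were searched on both strands. The ATF4-type element TGATGNAA matched 0 of the 11 sequences, against 3.45% of 32851 promoters of that length. The E-box CACGTG, which MYC and related factors can bind, also matched 0, against 6.02% of all promoters. The E2F-type octamers TTTCCCGC and TTTGGCGC matched 0 as well, against 1.30%. The pentamer CCAAT, the core of the NF-Y box, was searched after the other motifs had been counted. It was found in 7 of the 11 sequences, of 7 genes, against 33.8% of all promoters. None of these motifs contains another. Of the 5 sequences below, Mthfd2 and Phgdh are shown for their differences between classes, Shmt1 and Mthfd1 for their differences within cycling cells, and Shmt2 as 1 of the 2 genes, with Mthfd1l, that lacked CCAAT. Each runs 5′ to 3′ toward the start of the gene with CCAAT, or ATTGG on the opposite strand, in capitals.
Mthfd2, chr6:83317605-83317854, minus strand: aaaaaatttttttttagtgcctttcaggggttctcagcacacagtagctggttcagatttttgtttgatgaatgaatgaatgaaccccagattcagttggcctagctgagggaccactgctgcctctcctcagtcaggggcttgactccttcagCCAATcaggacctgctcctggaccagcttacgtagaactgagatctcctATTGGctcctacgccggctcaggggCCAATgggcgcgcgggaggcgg
Phgdh, chr3:98339970-98340219, minus strand: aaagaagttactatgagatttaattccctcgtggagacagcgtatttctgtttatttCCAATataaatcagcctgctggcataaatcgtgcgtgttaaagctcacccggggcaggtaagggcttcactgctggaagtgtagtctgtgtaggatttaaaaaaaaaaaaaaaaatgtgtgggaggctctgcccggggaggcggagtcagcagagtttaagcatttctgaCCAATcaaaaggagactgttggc
Shmt1, chr11:60811266-60811515, minus strand: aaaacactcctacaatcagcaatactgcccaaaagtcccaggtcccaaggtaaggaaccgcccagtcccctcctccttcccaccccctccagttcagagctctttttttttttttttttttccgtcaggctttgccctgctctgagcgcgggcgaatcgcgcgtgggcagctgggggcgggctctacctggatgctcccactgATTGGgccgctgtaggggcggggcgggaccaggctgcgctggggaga
Mthfd1, chr12:76254982-76255231, plus strand: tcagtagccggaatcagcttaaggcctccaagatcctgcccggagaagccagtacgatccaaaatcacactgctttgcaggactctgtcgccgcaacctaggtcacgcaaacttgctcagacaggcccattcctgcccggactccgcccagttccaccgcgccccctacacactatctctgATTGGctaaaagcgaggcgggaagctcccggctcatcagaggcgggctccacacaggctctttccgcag
Shmt2, chr10:127522445-127522694, minus strand: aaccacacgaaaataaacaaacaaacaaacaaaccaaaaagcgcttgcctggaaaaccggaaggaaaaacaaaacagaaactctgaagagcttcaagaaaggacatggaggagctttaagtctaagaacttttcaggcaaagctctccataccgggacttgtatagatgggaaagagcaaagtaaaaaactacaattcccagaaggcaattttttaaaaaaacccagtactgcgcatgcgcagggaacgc
The first base of the motif lay 96, 47 and 22 bases before the start in Mthfd2, 193 and 23 in Phgdh, 47 in Shmt1 and 69 in Mthfd1. A match describes these letters and no binding was measured.

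Libraries held 158570946, 197176873 and 175794959 UMIs, with median depths of 4774, 5562 and 4273 UMIs per kept cell for mono-IL-10, the IL-10/2-Trikine and the combination, and 137 to 180 kept barcodes were shared by a pair of libraries. The classes carried their defining markers. C1qa stood at 2446 to 3358 CPM, the usual scaling of counts to a common sum of UMIs, in macrophages and at most 27.1 CPM in any lymphocyte sum, and Ncr1 stood at 354 to 790 CPM in NK cells. Trac was 29.4 to 47.0 CPM in NK cells and 8.83 to 15.0 CPM in macrophages, against at least 853 CPM in every T cell sum. A cluster of 7040 cells that fed the NK class had Trdc and Trgc4, genes of the gamma-delta T cell receptor, among its leading genes. Only its barcodes without a Cd3 UMI were used, and resting NK cells were shallower than cycling ones (medians of 3644 and 8471 UMIs with mono-IL-10). How many gamma-delta T cells the class held in each phase was not tested. The tumor cell marker Chga did not exceed 4.34 CPM. Foxp3-negative means that no Foxp3 UMI was counted. Resting Foxp3-negative CD4 T cells were shallower than cycling ones, with medians of 3813 against 13292 UMIs in the combination. Il2ra stood at 42.8 to 183 CPM in their resting sums, against 277 to 487 CPM in resting Foxp3-positive T cells. How many Foxp3-expressing cells without such a UMI the class held in each phase was not tested. A cell counted as cycling when 20 cell cycle genes gave it at least 3 UMIs and at least 10 per 10000, and as resting with at most 1 UMI and under 3 per 10000. None of the enzymes entered that score or the clustering. Cycling cells were 16.7%, 39.9% and 20.4% of CD8 T cells with mono-IL-10, the IL-10/2-Trikine and the combination. They were 13.1%, 44.2% and 30.02% of Foxp3-negative CD4 T cells, 22.3%, 38.0% and 36.0% of Foxp3-positive T cells, 3.60%, 14.4% and 7.09% of NK cells and 18.6%, 25.5% and 20.5% of macrophages. With mono-IL-10 only 25 NK cells were cycling, so that sum holds few UMIs of each enzyme.

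The first comparison was of cycling with resting cells, and asks how the enzymes differ with division. Of the members that could be tested, 9 of 9 were higher in cycling CD8 T cells, 9 of 9 in Foxp3-negative CD4 T cells, 9 of 9 in Foxp3-positive T cells, 8 of 8 in NK cells and 8 of 9 in macrophages. These counts come from edgeR's quasi-likelihood test on UMIs summed per library, class and phase, with the library as a block and a call at a Benjamini-Hochberg adjusted p under 0.05. Among all genes tested, 32.3% were called higher in cycling CD8 T cells, 29.9% in Foxp3-negative CD4 T cells, 29.7% in Foxp3-positive T cells, 22.9% in NK cells and 24.8% in macrophages. Because the members were chosen with earlier results of these data known, the contrast with these shares is a description. A gene is tested when it has enough UMIs in either phase, so a gene that is high in 1 phase alone had to differ. Members called while their resting sums would also have passed the low-count filter were 9, 7, 5, 7 and 7 in the same order of classes. Those that passed through the cycling sums were Shmt1 in Foxp3-negative CD4, Foxp3-positive T and NK cells, Bcat1 in Foxp3-negative CD4 T cells, Foxp3-positive T cells and macrophages, and Shmt2 and Mthfd1 in Foxp3-positive T cells, and their changes are descriptions. The median log2 change of the tested members was 2.19, 2.28, 2.72, 1.85 and 1.13 in the same order, beside medians between -0.02 and 0.00 over all genes tested. These medians include the members that passed through the cycling sums, so they are descriptions too. In Foxp3-positive T cells the 2.72 is the value of Shmt2, which passed in that way. The 5 members whose resting sums passed there had 3.19 (Phgdh), 2.09 (Psat1), 1.31 (Mthfd2), 1.08 (Psph) and 1.03 (Mthfd1l). Cycling lymphocytes also held more RNA per barcode, with a median of 10785 UMIs against 3906 in resting CD8 T cells given mono-IL-10, so counts per cell differed more than CPM. Phgdh UMIs per CD8 T cell, for example, were 12.9 to 18.9 times as many in cycling cells. With every cell thinned to 1000 UMIs, all 9 members remained called in CD8 and in Foxp3-negative CD4 T cells, whereas 3 of 4 testable members were called in Foxp3-positive T cells, 0 of 2 in NK cells and 5 of 6 in macrophages. Called doublets were more frequent among cycling than resting CD8 T cells with the IL-10/2-Trikine, at 13.5% against 1.23%, and without called doublets the 9 calls in CD8 T cells were again 9. In the combination, where the cut for a doublet was higher, 0.225% of cycling CD8 T cells were called.

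**Figure D1:**
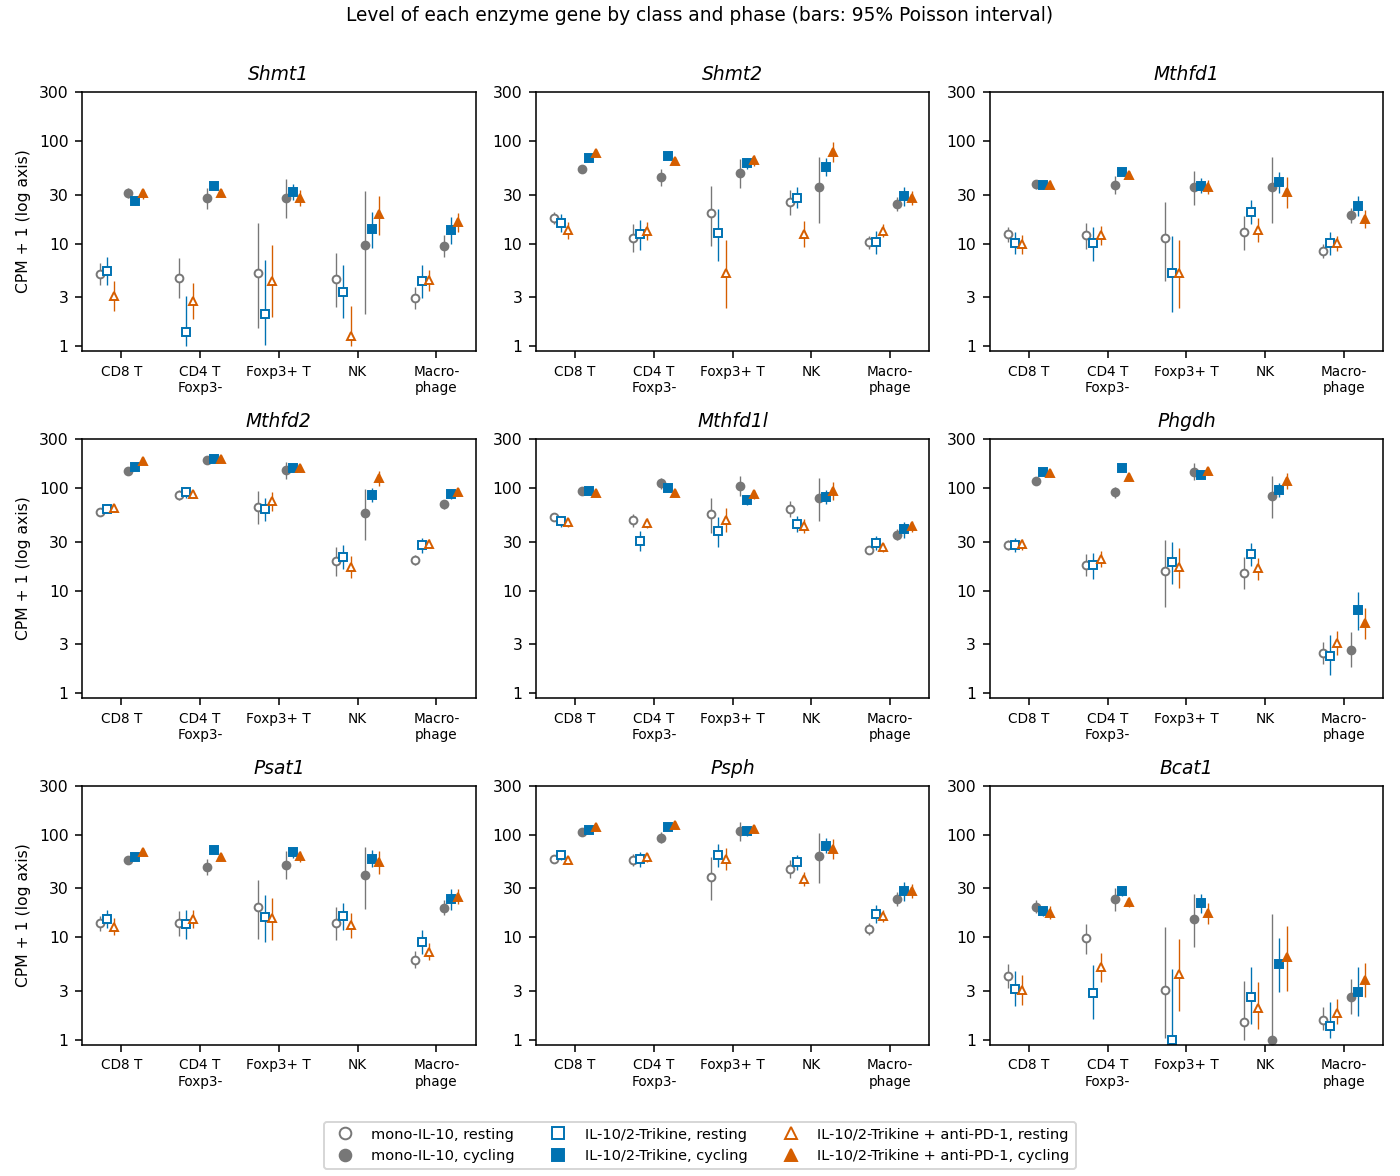
CPM + 1 (vertical axis, log scale) of the 9 testable enzyme genes, 1 panel per gene, in resting (open) and cycling (filled) cells of the 5 classes, with 1 symbol per library and bars for the 95% Poisson interval of its UMIs. Cycling symbols lie above the resting symbols of the same T cell class in each panel, and macrophage Phgdh lies lowest in its panel, at 1.29 to 5.44 CPM before 1 is added.

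In serine synthesis, Phgdh, the first and committed enzyme, stood at 26.9, 26.7 and 27.3 CPM in resting CD8 T cells with mono-IL-10, the IL-10/2-Trikine and the combination. In cycling CD8 T cells it stood at 114, 140 and 138 CPM. The phases were thus far apart in each library, while the resting values lay within 1 CPM of each other, and the change was 5.10-fold (log2 2.35 ± 0.085 SE, n = 3 libraries, edgeR adjusted p = 1.65e-12). In Foxp3-positive T cells, Phgdh went from 14.6, 18 and 16.0 CPM at rest to 143, 132 and 145 CPM, a 9.10-fold rise (log2 3.19 ± 0.18, adjusted p = 6.36e-22). Foxp3-negative CD4 T cells gave 16.7, 16.6 and 19.3 CPM at rest and 89.2, 155 and 125 CPM when cycling. NK cells gave 14.0, 21.6 and 15.5 CPM, then 82.5, 94.4 and 115 CPM. The phases did not overlap in either class, and the rises were 7.46-fold and 5.96-fold.

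Macrophages held little Phgdh in either phase. Its levels were 1.45, 1.29 and 2.08 CPM at rest and 1.62, 5.44 and 3.79 CPM in cycling cells, with 7 to 27 UMIs in each of the 6 sums. The phases overlapped and the change was not called (log2 0.75 ± 0.34, adjusted p = 0.0749). Trac, a T cell transcript that macrophages should lack, stood at 8.83 to 15.0 CPM in the same sums. The NK cell transcript Ncr1 stood at 3.50 to 5.79 CPM in resting and 0.443 to 17.0 CPM in cycling macrophages. The part of free RNA or of RNA from other cells in macrophage Phgdh was not tested.

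Psat1, the aminotransferase of the second step, went from 12.7, 14.0 and 11.7 CPM to 55.3, 59.7 and 66.3 CPM in CD8 T cells, a 4.99-fold rise (log2 2.32 ± 0.11, adjusted p = 3.76e-11). Psat1 was lower in macrophages and rose there from 5.06, 8.09 and 6.25 CPM to 18.5, 22.4 and 24.0 CPM (3.097-fold). Psph, the phosphatase that releases serine, differed less between phases. Its levels in CD8 T cells were 56.4, 62.2 and 56.1 CPM at rest and 105, 109 and 119 CPM when cycling, with no overlap and a 2.02-fold rise (log2 1.01 ± 0.081, adjusted p = 2.22e-08). Rises of Psph in the other classes ran from 1.65-fold in macrophages to 2.13-fold in Foxp3-negative CD4 T cells. In NK cells its rise of 1.68-fold (adjusted p = 0.00111) lost its call without the combination library, at a log2 change of 0.57 and an adjusted p of 0.0543.

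Of the mitochondrial enzymes, Mthfd2, Shmt2 and Mthfd1l were called higher in each class by edgeR, and Aldh1l2 was not testable. Mthfd2, the mitochondrial methylene-tetrahydrofolate dehydrogenase known for its low level in most resting adult tissues, stood at 57.6, 61.4 and 63.0 CPM in resting and 145, 158 and 180 CPM in cycling CD8 T cells (2.80-fold, log2 1.49 ± 0.075, adjusted p = 1.01e-10). Resting Foxp3-negative CD4 T cells had more of it, 83.8, 89.1 and 85.6 CPM, and their cycling cells had 186, 189 and 190 CPM. NK cells began at 18.4, 20.4 and 16.0 CPM and reached 56.4, 84.4 and 123 CPM (5.41-fold, log2 2.44 ± 0.21, adjusted p = 4.45e-08). The 56.4 CPM with mono-IL-10 rests on 13 UMIs from 25 cells. Macrophages went from 18.8, 26.5 and 27.5 CPM to 67.9, 86.1 and 90.6 CPM (3.02-fold, log2 1.60 ± 0.082, adjusted p = 1.34e-11). NK cells and macrophages thus shared a low resting level of Mthfd2 and a clear separation of the phases.

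Shmt2 rose 4.57-fold in CD8 T cells, from 16.8, 15.0 and 12.5 CPM to 52.4, 66.7 and 75.6 CPM (log2 2.19 ± 0.14, adjusted p = 1.12e-09). Its rise was 5.60-fold in Foxp3-negative CD4 T cells, 6.61-fold in Foxp3-positive T cells (9, 11 and 5 UMIs at rest), 3.20-fold in NK cells and 2.19-fold in macrophages. Mthfd1l, the mitochondrial formyl-tetrahydrofolate synthetase that releases formate, moved less. Its CD8 T cell levels were 50.5, 46.0 and 45.5 CPM at rest and 92.6, 91.8 and 87.3 CPM when cycling (2.03-fold, log2 1.02 ± 0.077, adjusted p = 1.17e-08). In macrophages its levels were 23.8, 28.1 and 25.4 CPM against 34.1, 38.4 and 41.3 CPM, which did not overlap but differed by 1.32-fold only (adjusted p = 0.00128), a call that DESeq2 did not make (adjusted p = 0.0661).

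In the cytosolic arm, Shmt1 was near the floor at rest, at 4.11, 4.46 and 2.08 CPM in CD8 T cells, and stood at 30.2, 24.8 and 29.8 CPM in cycling ones (8.59-fold, log2 3.103 ± 0.19, adjusted p = 9.07e-10). In Foxp3-negative CD4 T cells it went from 3.68, 0.378 and 1.74 CPM to 26.8, 35.7 and 30.2 CPM (log2 4.07 ± 0.33), on 13, 1 and 11 UMIs at rest. In macrophages it rose 3.78-fold, and all cycling sums lay above all resting sums in each class. Resting Foxp3-positive T cells had 2, 1 and 4 Shmt1 UMIs and resting NK cells 7, 6 and 1, too few for a firm fold. Mthfd1, the trifunctional cytosolic enzyme, stood at 11.4, 9.24 and 8.92 CPM in resting and 36.8, 36.0 and 36.4 CPM in cycling CD8 T cells (3.90-fold, log2 1.964 ± 0.12, adjusted p = 7.36e-10). The cycling values of the 3 libraries lay within 1 CPM of each other. Its rise was 1.93-fold in macrophages, and resting Foxp3-positive T cells had 5, 4 and 5 UMIs of it.

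Bcat1 was measured mostly in T cells. It went from 3.25, 2.15 and 2.08 CPM to 18.9, 17.0 and 16.4 CPM in CD8 T cells (7.30-fold, log2 2.87 ± 0.18, adjusted p = 1.16e-09) and from 8.78, 1.89 and 4.11 CPM to 22.4, 27.1 and 21.2 CPM in Foxp3-negative CD4 T cells (5.26-fold, on 31, 5 and 26 UMIs at rest). NK cells were at 0 to 5.48 CPM in every sum and had too few UMIs for the test. Macrophages stayed at or below 2.89 CPM, on 2 to 11 UMIs at rest and 6 to 16 when cycling, and DESeq2 did not call their difference (adjusted p = 0.112). Aldh1l2 gave 23 UMIs over all 5 classes, at most 3 in any sum, and was never testable, so its change was not detectable at this depth.

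Cells that met neither definition lay between the phases. Among the 15 combinations of library and class, the order from resting over these cells to cycling cells held in 14 for Mthfd1 and for Phgdh, in 13 for Shmt1, Mthfd2 and Psat1, in 12 for Shmt2, Mthfd1l and Psph, and in 8 for Bcat1. Cycling cells exceeded them in all 15 combinations for each of these genes except Phgdh and Bcat1, with 14.

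**Figure D2:**
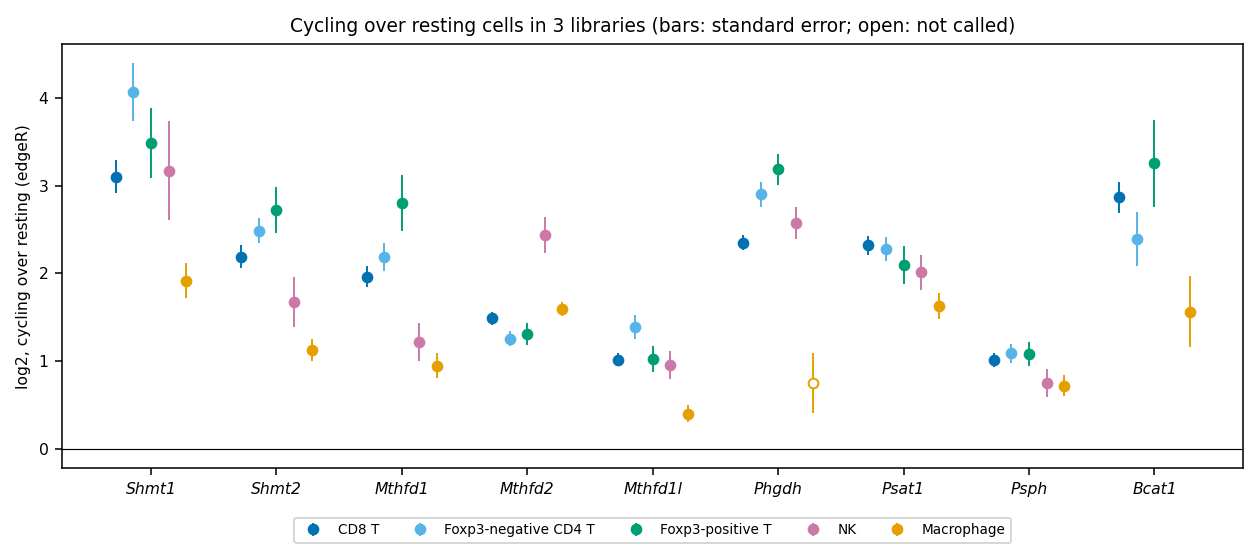
Log2 change of each testable enzyme gene, cycling over resting, with its standard error (edgeR, 3 libraries), by class. Points lie above 0 throughout, from 0.40 for Mthfd1l in macrophages to 4.07 for Shmt1 in Foxp3-negative CD4 T cells, and the 1 change not called (open symbol) is Phgdh in macrophages.

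The size of the rise differed between classes for part of the members. The difference between the cycling effect of a class and that of CD8 T cells was tested in 1 fit, an analysis chosen after seeing the data, and all 4 differences share the CD8 T cell sums. In macrophages 7 of 9 members rose less than in CD8 T cells, where 39.5% of all genes differed in either direction. Phgdh was among them (-1.71 ± 0.37, adjusted p = 5.10e-04), but its macrophage sums held 7 to 27 UMIs and it passed the filter through the lymphocytes, so its difference is a description. The others ran from -1.27 for Shmt1, -1.19 for Shmt2 and -1.11 for Mthfd1 to -0.80 for Psat1, -0.75 for Mthfd1l and -0.41 for Psph. Mthfd2 differed by -0.02 ± 0.14 only (adjusted p = 0.994). With cells thinned to 1000 UMIs, Psat1 and Psph turned to 0.0571 and 0.0873, and 2 of the 7 calls were left. Without the combination library none of the 7 differences was called, and without the IL-10/2-Trikine library 4 were. In NK cells 1 of 9 differed, Mthfd2, which rose more by 0.85 ± 0.18 (adjusted p = 0.00847), beside 2.61% of all genes, and it lost the call without either of those libraries. In Foxp3-negative CD4 T cells 0 of 9 members were called against CD8 T cells by edgeR, beside 0.835% of all genes, with 3 at an unadjusted p under 0.05. Foxp3-positive T cells also gave 0 of 9, beside 3.53%, with 2 at an unadjusted p under 0.05. The nearest to a call among these were Phgdh in Foxp3-positive T cells, at 0.83 ± 0.30 (adjusted p = 0.130), and Phgdh in Foxp3-negative CD4 T cells, at 0.59 ± 0.20 (adjusted p = 0.168).

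At rest, Phgdh was called lower in each of the other 3 lymphocyte classes than in CD8 T cells, whose sums these comparisons share. The share of members called was no larger than that of all genes in Foxp3-negative CD4 and in Foxp3-positive T cells. Resting Foxp3-negative CD4 T cells had more Mthfd2 than resting CD8 T cells (log2 0.44 ± 0.094, adjusted p = 0.00211) and less Phgdh (-0.67 ± 0.14, adjusted p = 0.00194), 2 of 9 members beside 22.6% of all genes called in either direction. Without the IL-10/2-Trikine library the Mthfd2 call was lost. Resting Foxp3-positive T cells differed in 1 of 9, again with less Phgdh (-0.80 ± 0.21, adjusted p = 0.00938), beside 24.8% of all genes. This call was lost without the mono-IL-10 library and without the combination library. Resting NK cells differed in 4 of 9, beside 34.6% of all genes. They had less Mthfd2 (-1.76 ± 0.13, adjusted p = 3.47e-09), Phgdh (-0.68 ± 0.16) and Psph (-0.40 ± 0.13) and more Mthfd1 (0.57 ± 0.21, adjusted p = 0.0392). Without the IL-10/2-Trikine library, or without the combination library, 2 of these 4 calls were left. Resting macrophages were lower in 6 of 9, Psph (-2.05), Mthfd2 (-1.33), Psat1 (-1.02), Mthfd1l (-0.88), Phgdh and Bcat1, again no larger a share than the 73.8% of all genes. Phgdh had 23, 7 and 27 UMIs there and Bcat1 9, 2 and 11, and both passed the low-count filter through other classes, so nothing is read from their calls.

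When cycling, few members were called between the T cell classes, a share no larger than that of all genes. Foxp3-positive T cells were called against CD8 T cells in 0 of 9 members by edgeR, with 0 at an unadjusted p under 0.05 and 0 by DESeq2, beside 15.6% of all genes, and the differences lay between -0.22 ± 0.12 for Shmt2 and 0.02 ± 0.12 for Phgdh. Foxp3-negative CD4 T cells were called in Bcat1 alone (0.42 ± 0.13, edgeR adjusted p = 0.0365), 1 of 9 beside 17.3% of all genes, with 3 at an unadjusted p under 0.05. The Bcat1 call was absent with DESeq2, with doublets removed and without the IL-10/2-Trikine or the combination library. In the fit without the mono-IL-10 library 2 members were called. Cycling NK cells were lower in 5 of 9, beside 17.6% of all genes: Shmt1 (-0.99 ± 0.25), Mthfd2 (-0.79 ± 0.12), Psph (-0.64 ± 0.11), Phgdh (-0.47 ± 0.16, adjusted p = 0.0459) and Bcat1. Shmt1 rested on 2, 23 and 20 UMIs there. With mono-IL-10, Mthfd2, Psph and Phgdh rested on 13, 14 and 19 UMIs from 25 cells. With 0, 8 and 6 UMIs in cycling NK cells, Bcat1 passed the low-count filter through the sums of other classes, so its call follows from the filter and supports nothing. Without the IL-10/2-Trikine library 3 of these were called. Cycling macrophages were lower in 9 of 9, beside 75.0% of all genes. Nothing is read from the calls of Bcat1, on 11, 6 and 16 UMIs, and Phgdh, on 11, 17 and 21, for the same reason. The narrowest gap was Mthfd1 (-1.04 ± 0.12).

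Within cycling cells the members followed the order of the cell cycle to different degrees. This split was also chosen after seeing the data. Cycling cells were called S-led where at least 40% of their UMIs over 46 S and 54 G2/M genes were from S genes, and G2/M-led where under 20% were. Shmt1 passed the low-count filter through the S-led cells in each of the 3 classes compared, so its differences are descriptions. In CD8 T cells, 9 of 9 members were higher in S-led cells, beside 27.8% of all genes, and in Foxp3-negative CD4 T cells 9 of 9, beside 21.8%. Macrophages gave 5 of 7, beside 16.8%. S-led cells were deeper than G2/M-led cells in CD8 T cells, with medians of 12245 against 8766 UMIs for mono-IL-10, and the part of depth in the differences was not tested.

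Shmt1 in CD8 T cells stood at 4.57, 1.75 and 2.75 CPM in G2/M-led cells, on 11, 7 and 6 UMIs, and at 45.0, 40.7 and 44.4 CPM in S-led cells, on 136, 306 and 165 UMIs. The groups were far apart (log2 3.92 ± 0.21), with a size that rests on the few UMIs of the G2/M-led cells. The G2/M-led values were close to those of resting CD8 T cells. Bcat1 and Mthfd1 came next. Mthfd1 went from 13.7, 10.2 and 10.6 CPM to 54.3, 55.1 and 54.4 CPM (4.82-fold, log2 2.27 ± 0.14), and Bcat1 from 7.48, 4.25 and 3.67 CPM to 25.8, 27.8 and 21.0 CPM (5.06-fold).

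The mitochondrial enzymes lay in the middle in CD8 T cells, with 2.68-fold for Shmt2, 2.42-fold for Mthfd1l and 1.89-fold for Mthfd2. The serine synthesis enzymes differed least, with 1.76-fold for Phgdh, 1.52-fold for Psat1 and 1.43-fold for Psph. Psph stood at 84.0, 85.2 and 93.6 CPM in G2/M-led cells and 114, 125 and 135 CPM in S-led cells, so both groups exceeded all resting values. For comparison, Tyms, which makes thymidylate, was not used for the split and had 83.5, 106 and 86.7 CPM against 204, 244 and 250 CPM. In Foxp3-negative CD4 T cells the differences of Mthfd1 (3.79-fold) and Bcat1 (3.65-fold) were again large, Phgdh (1.81-fold) exceeded Mthfd2 (1.65-fold), and the flattest was Psat1 (1.32-fold, adjusted p = 0.0221), whose call was lost without the IL-10/2-Trikine library, without the combination library and with called doublets removed. In macrophages Mthfd1 (3.72-fold), Shmt1 (3.21-fold, on 8, 8 and 14 UMIs in G2/M-led cells), Mthfd1l (2.45-fold), Shmt2 (2.28-fold) and Mthfd2 (1.58-fold) were higher in S-led cells, while Psat1 (1.36-fold, adjusted p = 0.0997) and Psph (1.06-fold, adjusted p = 0.758) were not called.

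**Figure D3:**
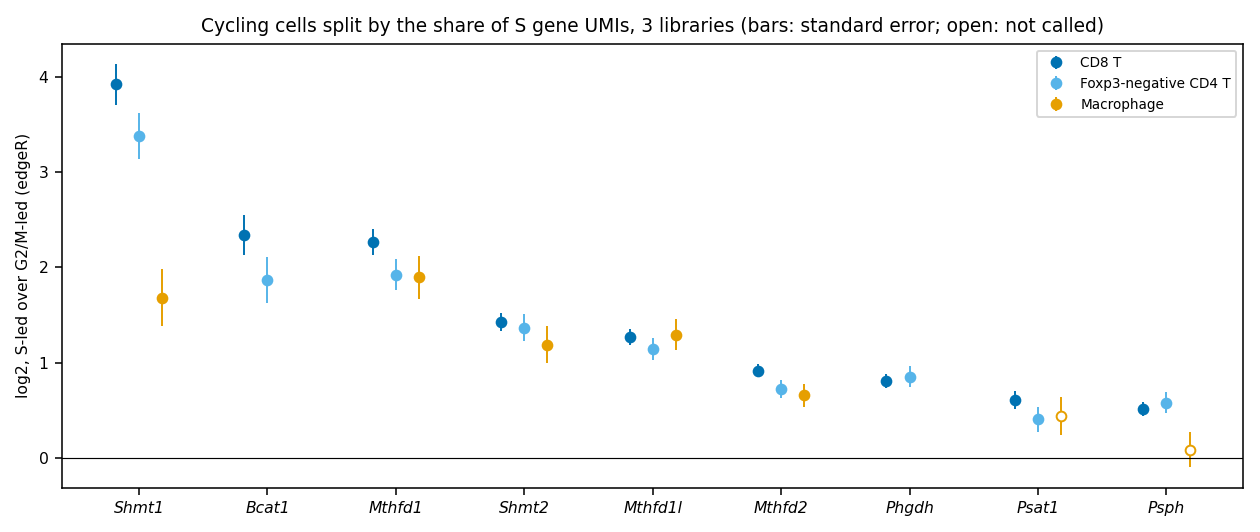
Log2 difference, S-led over G2/M-led cycling cells, of each testable enzyme gene with its standard error (edgeR, 3 libraries), in CD8 T cells, Foxp3-negative CD4 T cells and macrophages. Shmt1 in CD8 T cells is the highest point, at 3.92, and the open symbols are the changes not called, Psat1 and Psph in macrophages.

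Other genes of the pathway did not all move with the members. Of 11 genes of purine synthesis, a pathway that spends one-carbon units at the steps of Gart and Atic, 10 were higher and 0 lower in cycling CD8 T cells, with a median log2 change of 1.26, beside 32.3% of all genes called higher and 31.7% lower. Pfas (2.64 in CD8 T cells, 4.01 in Foxp3-positive T cells) and Impdh2 (1.85 and 2.66) led them. For genes of the pathway lists it was not counted which passed the low-count filter through their cycling sums alone. Their changes and counts of calls are therefore descriptions. In macrophages 9 of these 11 were higher and 1 lower, beside 24.8% and 27.9% of all genes. Of the folate cycle list 6 were higher and 1 lower of 12 tested in CD8 T cells, and 2 were higher and 4 lower of 13 in macrophages, where the higher calls were a smaller share than over all genes. Tyms, the thymidylate synthase, rose in all 5 classes, by log2 3.83 to 4.23. Sfxn1, a mitochondrial serine carrier, rose in the 4 lymphocyte classes and reached 0.18 in macrophages without a call, whereas its paralog Sfxn3 fell in all 5 (-0.88 to -1.39).

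Genes that spend glycine and serine elsewhere were split, with 4 higher and 2 lower of 8 tested in CD8 T cells (all genes, 32.3% and 31.7%) and 0 higher and 2 lower of 7 in macrophages (24.8% and 27.9%). Methionine cycle and transsulfuration genes gave 1 higher and 1 lower of 5 in CD8 T cells. Branched-chain amino acid genes other than Bcat1 gave 2 higher and 1 lower of 5, and Bckdk, the kinase that restrains branched-chain ketoacid oxidation, rose in all 5 classes (0.70 to 1.40). The ATF4 and amino acid transport list, which includes many known targets of the factor that drives serine synthesis genes under amino acid shortage, gave 4 higher and 3 lower of 13 in CD8 T cells, with a median of 0.08. Both shares were under those of all genes. Within it Asns, the asparagine synthetase, rose in 4 classes and Slc7a5, the light chain of a large neutral amino acid carrier, in all 5 (0.73 to 2.01), while its partner Slc3a2 fell in all 5 (-0.45 to -0.78). Cycling cells thus had higher Slc7a5 beside lower Slc3a2 in each class.

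**Figure D4:**
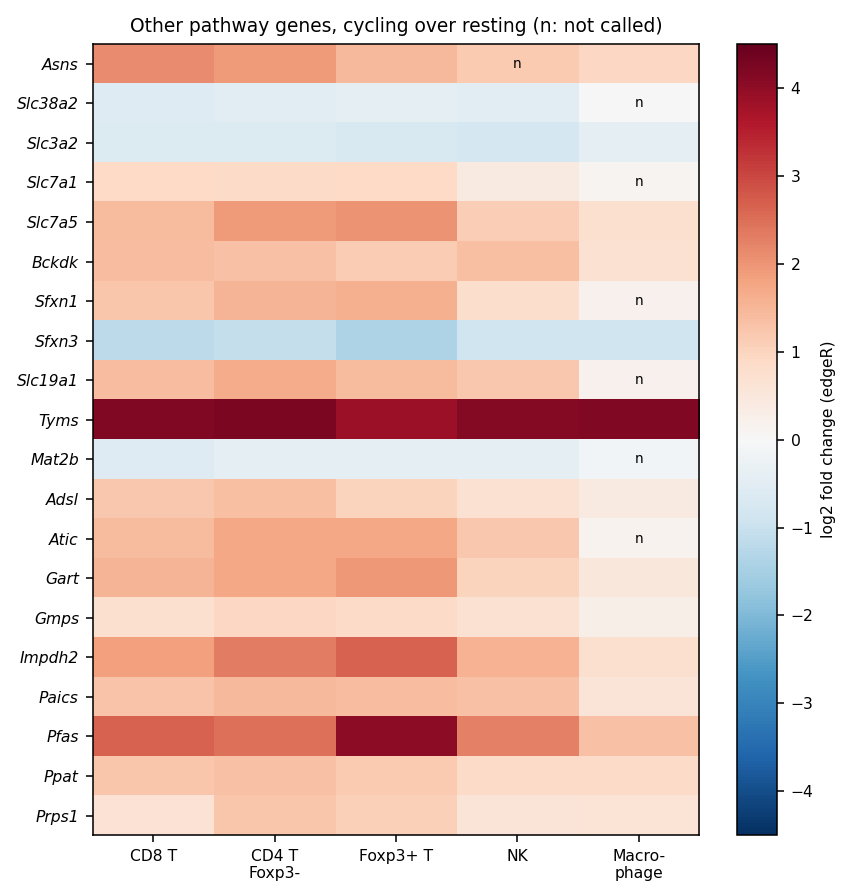
Heat map of the log2 change, cycling over resting (edgeR, color scale), of genes from the pathway lists (rows) that were called in the same direction in at least 4 of the 5 classes (columns), with n where a change was not called. Tyms shows the darkest red row, from 3.83 to 4.23, and Sfxn3, Slc3a2, Slc38a2 and Mat2b are the rows in blue.

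Between treatments, only 1 library stands for each group, so no test was possible, intervals cover counting error alone, and a value was called past when the ratio was at least 1.5 or at most its inverse with at least 20 UMIs in the pair. Over all cells of a class, 19 of 44 pairs of member and class were past the fold upward with the IL-10/2-Trikine relative to mono-IL-10 and 0 downward, beside 23.2% of all gene and class pairs in either direction. The other pairs lay within the fold, among them Mthfd1l in Foxp3-positive T cells, lower at 63.5 CPM with the IL-10/2-Trikine against 78.5 CPM with mono-IL-10. Phgdh in Foxp3-negative CD4 T cells went from 39.9 to 123 CPM, a ratio of 3.08 (95% exact interval 2.75 to 3.45), and in CD8 T cells from 60.0 to 107 CPM (1.78, 1.67 to 1.89). The median ratio of the members was 2.02 in Foxp3-negative CD4 T cells, 1.66 in NK cells, 1.34 in CD8 T cells, 1.30 in macrophages and 1.15 in Foxp3-positive T cells. The median over all genes was shifted by -0.18 on the log2 scale in Foxp3-negative CD4 T cells and by -0.14 in CD8 T cells, so relative to it these ratios were larger.

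With cycling and resting cells taken apart, fewer pairs were past the fold. Among resting cells 5 of 38 pairs were past upward and 4 downward, beside 18.1%, and among cycling cells 4 of 43 were past upward and 0 downward, beside 19.8%. The 4 were Phgdh in cycling Foxp3-negative CD4 T cells (89.2 to 155 CPM, 1.74, 1.51 to 2.00), Shmt2 in the same cells (43.2 to 71.3 CPM, 1.65, 1.35 to 2.03), Shmt2 in cycling NK cells (34.7 to 54.8 CPM, 1.58, 0.770 to 3.76, on 8 and 98 UMIs) and Phgdh in cycling macrophages (1.62 to 5.44 CPM, 3.35, 1.48 to 7.91, on 11 and 17 UMIs). Cycling macrophage sums held 0.443 to 17.0 CPM of the NK cell transcript Ncr1, and the part of NK cell RNA in their Phgdh was not tested. Relative to the median of all genes, 9 pairs of cycling cells were past, with cycling cells gated by Mki67 10 were, and without called doublets 7 were. Of the 5 resting pairs past upward, Psat1 in macrophages went from 5.06 to 8.09 CPM (1.60, 1.08 to 2.34). Psph in Foxp3-positive T cells (1.67), Mthfd1 and Phgdh in NK cells (1.64 and 1.55) and Shmt1 in macrophages (1.69) had intervals that included 1, and with Cd3-bearing NK cells kept the log2 change of Mthfd1 turned to -0.0876. Downward, Bcat1 in Foxp3-negative CD4 T cells stood at 8.78 against 1.89 CPM (0.215, 0.0653 to 0.558) and Mthfd1l in these cells at 47.3 against 29.5 CPM (0.623, 0.470 to 0.820). Bcat1 in CD8 T cells (3.25 to 2.15 CPM, 0.661) and Shmt2 in Foxp3-positive T cells (18.7 to 11.6 CPM, 0.622, on 9 and 11 UMIs) had intervals that included 1.

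The all-cell ratios were set beside ratios with only the weights of the phases changed, or only the levels within phases. This calculation was added after seeing the data. Whatever was not changed kept its value in the library compared against, here that of mono-IL-10. Weights and levels therefore need not combine to the measured ratio. In Foxp3-negative CD4 T cells, cycling cells supplied 28.9% of the UMIs in the mono-IL-10 library and 75.2% in that of the IL-10/2-Trikine. Changing these weights alone gave a median ratio of 1.58 over the members, beside the 2.02 measured. Changing the levels alone, at the mono-IL-10 weights, gave 1.09, with members from 0.813 to 1.56. At these weights cycling cells count for 28.9% only. Within cycling Foxp3-negative CD4 T cells the median ratio of the members was 1.33, beside 0.923 over all genes. It was 1.04 in cycling CD8 T cells, 1.06 in Foxp3-positive T cells, 1.37 in NK cells and 1.23 in macrophages. The medians over all genes there were 0.949, 0.960, 0.979 and 1.01. In CD8 T cells, where the share went from 36.0% to 68.9%, the weights gave 1.36 and the levels 1.06, beside 1.34. In NK cells the share rose from 8.50% to 34.7%, with 1.37 from weights and 1.25 from levels. Macrophages differed in this respect, with 1.05 from weights and 1.24 from levels, beside 1.30. Fewer cells of a phase and less RNA per cell both enter these weights.

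**Figure D5:**
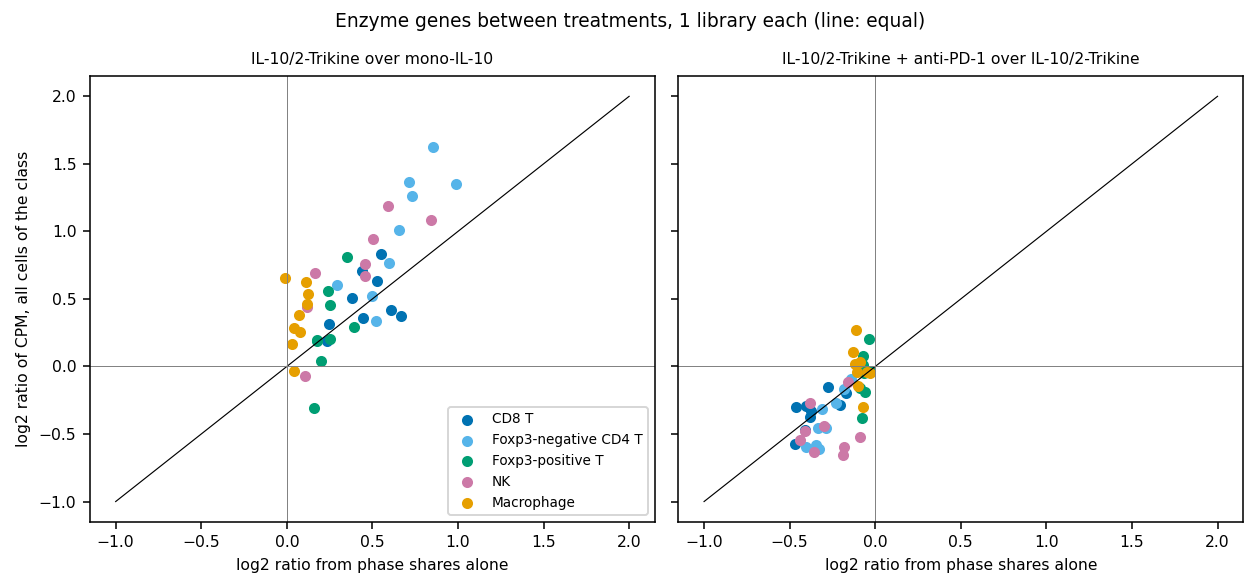
Log2 ratio of CPM over all cells of a class (vertical axis) against the log2 ratio with the phase weights alone changed (horizontal axis), 1 point per enzyme gene and class, for the IL-10/2-Trikine relative to mono-IL-10 (left) and the combination relative to the IL-10/2-Trikine (right), with a line of equal values. Phgdh in Foxp3-negative CD4 T cells is the highest point at left, at a ratio of 3.08 with 1.80 from weights alone, and macrophages stand close to 0 on the horizontal axis in both panels.

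Adding anti-PD-1 to the IL-10/2-Trikine was compared with the same IL-10/2-Trikine library, which both comparisons share. Over all cells, 0 of 45 pairs were past upward and 5 downward, beside 12.5% of all gene and class pairs. These were Phgdh (123 to 80.4 CPM, 0.654, 0.617 to 0.693) and Shmt1 (27.2 to 18.01 CPM, 0.663) in Foxp3-negative CD4 T cells and Shmt2, Mthfd1 and Psat1 in NK cells (0.663, 0.635 and 0.646). Among cycling cells 1 of 44 pairs was past, beside 10.2%, Bcat1 in macrophages on 6 and 16 UMIs (1.504, 0.559 to 4.69). Among resting cells 3 of 37 were past upward and 3 downward, beside 12.1%. Upward were Mthfd1l in Foxp3-negative CD4 T cells (29.5 to 44.8 CPM, 1.52, 1.18 to 1.98), Bcat1 in the same cells (1.89 to 4.11 CPM, on 5 and 26 UMIs) and Phgdh in macrophages (1.29 to 2.08 CPM, on 7 and 27 UMIs). Downward, Shmt1 in CD8 T cells went from 4.46 to 2.08 CPM (0.466, 0.239 to 0.887), Mthfd1 in NK cells from 19.6 to 12.6 CPM (0.643, 0.423 to 0.978) and Shmt2 in NK cells from 27.2 to 11.5 CPM (0.425, 0.284 to 0.630). With Cd3-bearing NK cells kept, the log2 change of Shmt2 was -0.043. The cycling share of UMIs fell to 44.8% in CD8 T cells and 55.8% in Foxp3-negative CD4 T cells, where weights alone gave median ratios of 0.769 and 0.807 and levels alone 1.03 and 0.898, beside 0.810 and 0.731 measured.

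The members' profiles over the 30 sums of library, class and phase are described by Pearson correlations of log2(CPM + 1). Phgdh and Psph gave r = 0.95, Mthfd1 and Shmt2 r = 0.94, and the lowest pair, Psph and Shmt1, r = 0.58. Genes outside the list with the closest profiles were Serbp1 (0.97), Sumo2 and Lsm4 for Phgdh, Lsm5 (0.98), Dnmt1 and Dpy30 for Psat1, Fkbp3 (0.97), Nt5c3b and Nfyb for Psph, Cdk4 (0.95), Sac3d1 and Snrnp40 for Shmt2 and Actl6a (0.96), Mrpl12 and U2af1 for Shmt1. For Mthfd1 they were Sac3d1 (0.96), Prmt1 and Hnrnpab, for Mthfd1l Raly (0.95), Ppat and Nono, and for Mthfd2 Emg1, Exosc8 and Arl6ip1 (0.92, 0.92 and 0.91). The sums share libraries and the split of phases, so these values describe the profiles and carry no test.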

How the data were processed

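The authors made the deposited matrices of UMI counts, genes by barcodes, with Cell Ranger. The processing notes name mm10 and the file headers version 8.0.0, whereas the methods name another version and build, so no coordinates were taken from the files. Each of the 3 groups is 1 library, taken from the titles and treatment labels. The members and lists were chosen with earlier results of these data known.

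Cells were barcodes with 200 or more genes and no more than 20% of UMIs from mitochondrial genes. The libraries were clustered together without integration (scanpy 1.11.5, anndata 0.12.19, leidenalg 0.10.2, igraph 0.11.9, scikit-learn 1.9.0, 2000 variable genes, 30 components, 20 neighbors, resolution 1, seed 1), leaving out the members, the pathway genes and cell cycle genes. This gave 24 clusters, from which classes were taken by markers, then gated per cell: T cells by Cd8a or Cd8b1, Cd4 and Foxp3 UMIs, NK cells without Cd3 UMIs and macrophages with at least 2 C1q UMIs and no Cd3 UMIs. Scrublet, run through scanpy, called 14.4%, 16.8% and 4.09% of cells doublets with mono-IL-10, the IL-10/2-Trikine and the combination. Its cut on the doublet score was set per library, at 0.186, 0.183 and 0.352 in that order. Called doublets were kept, and removed in an alternative. That removal was uneven between libraries, with fewest cells taken from the combination.

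UMI counts were summed per library, class and phase. edgeR 4.0.16 (R 4.3.3, limma 3.58.1, TMM factors, filterByExpr) fitted a quasi-likelihood model over all genes with the library as a block. Tests were two-sided, with Benjamini-Hochberg adjustment over all genes tested. Standard errors are the size of the log2 change over the square root of F. For genes whose spread was under that of Poisson counts, edgeR's default bound can set a larger p than that error implies. The 3 libraries differ in treatment, so p-values concern a difference over these libraries, and phases of a library came from the same tumors. A fit within 1 class has few sums, so its p-values lean on the spread that edgeR pools over all genes. They measure a gene's own stability over the 3 libraries only in part. Between treatments, CPM ratios carry exact conditional 95% intervals for counting error only. DESeq2 1.42.0, other factors, filters, gates, thinning and leaving out each library were alternatives. Whether a called member would also have passed filterByExpr on the group where it was lower, in each of its 3 sums, was counted after seeing the data. For the differences of the cycling effect this count used the cycling sums of the class. The test scripts were checked on simulated data. Of 12 purine synthesis genes listed, 11 were in the matrices. One gene of the pathway lists entered the counts and is not reported here by name. Summaries and plots were made in Python 3.11.15 with pandas 2.3.3, numpy 2.4.6, scipy 1.17.1 and matplotlib 3.10.9.

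Named genes were the 10 members, pathway genes called in the same direction in at least 4 of the 5 classes, and for each member with a mean of at least 10 CPM the 3 genes of closest profile.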

Additional observations from a re-analysis of the deposited data

Results flagged for a closer look

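The rise from resting to cycling cells differed from that in CD8 T cells for 8 combinations of enzyme and class, by edgeR's test of the difference itself over 3 libraries. Over all genes tested, 39.5% differed in macrophages and 2.61% in NK cells, in either direction. In macrophages the log2 difference was -1.11 ± 0.19 for Mthfd1 (adjusted p = 3.38e-05), -0.75 ± 0.16 for Mthfd1l (3.65e-04), -0.80 ± 0.17 for Psat1 (5.06e-04), -0.41 ± 0.16 for Psph (0.0373), -1.27 ± 0.41 for Shmt1 (0.0139) and -1.19 ± 0.28 for Shmt2 (0.00101). For Phgdh it was -1.71 ± 0.37 (5.10e-04), on 7 to 27 UMIs in each macrophage sum and past the low-count filter through lymphocytes, so nothing is read from that call. In NK cells it was 0.85 ± 0.18 for Mthfd2 (0.00847). Shmt1 fell under the low-count filter at rest in macrophages and in CD8 T cells and passed through cycling sums, so its difference is a description. Each smaller rise in macrophages was measured from a class with C1qa at 2446 to 3358 CPM and Trac at no more than 15.0 CPM. The part of T cell or NK cell RNA in these differences was not tested. Median depth differed by phase less in macrophages, at 6282 and 8324 UMIs with mono-IL-10, than in CD8 T cells, at 3906 and 10785. How much of the differences went with depth was not tested separately. With cells thinned to 1000 UMIs, 2 of the 7 calls in macrophages and 0 in NK cells were made, and Psat1 and Psph turned to 0.0571 and 0.0873. Without the combination library 0 of the 7 macrophage calls were made, and without the IL-10/2-Trikine library 4 were. Mthfd2 in NK cells lost its call without either of these libraries.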

How the results depend on the processing

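Of the single values recomputed, 1078 counted as kept, 52 lost the call, 2 moved and 3 reversed. The 1078 include 115 ratios between treatments, which carry no call, and any value that kept its direction but had no adjusted p. Of the counts, 182 stayed within 1.5 times and 32 did not. With cells thinned to 1000 UMIs, the members called higher in cycling cells were 3 of 4 tested in Foxp3-positive T cells, 0 of 2 in NK cells and 5 of 6 in macrophages, and the differences from CD8 T cells were 2 in macrophages and 0 in NK cells. There Psph and Psat1 reversed in macrophages, to 0.0873 and 0.0571. Leaving out 1 library at a time gave 1 to 2 calls at rest for Foxp3-negative CD4 T cells, 0 to 1 for Foxp3-positive T cells and 2 to 4 for NK cells. For cycling cells it gave 0 to 2 for Foxp3-negative CD4 T cells and 3 to 5 for NK cells, and for the differences of the cycling effect 0 to 1 in NK cells and 0 to 7 in macrophages. With 2 libraries left, fewer sums support each fit. Cycling Foxp3-negative CD4 T cells gave 0 calls with DESeq2 and 0 with doublets removed. Keeping NK cells with Cd3 gave 3 calls when cycling and 2 differences of the cycling effect. No filter on low counts gave 1 such difference each for Foxp3-negative CD4 and Foxp3-positive T cells. Relative to mono-IL-10, the IL-10/2-Trikine's cycling pairs past the fold were 9 relative to the median gene, 10 with the Mki67 gate and 7 without doublets, against 4. For the combination over the IL-10/2-Trikine they were 0, 0 and 0 under the same settings, 2 with a stricter cycling limit and 2 with Cd3-bearing NK cells kept, against 1. In resting NK cells Mthfd1 reversed to -0.0876 on the log2 scale and, for the combination, Shmt2 moved to -0.043 with Cd3-bearing cells kept. No paired analysis was possible between treatments because each has 1 library. The library block pairs the phases, and without it the counts of calls in cycling over resting cells were 9, 9, 9, 8 and 8. The depth limits Aldh1l2 in all classes, Bcat1 in NK cells and macrophages, and Phgdh in macrophages.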
